A study of Mus musculus with 6 samples.

Results

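The receptors of the tumour necrosis factor (TNF) family were compared between LM2 and Parental cells, related lines of the mouse mammary tumour line EO771. The 10 genes described are Cd40, Fas, Tnfrsf1a, Tnfrsf1b, Tnfrsf10b, Tnfrsf11b, Tnfrsf12a, Tnfrsf19, Tnfrsf21 and Ngfr, taken by symbol from 35905 genes. Levels were measured by RNA sequencing of the lines labelled EO771-tdT-LM2 and EO771-tdT-Parental_Ac6, in 3 libraries each, both with the genotype label WT and with no treatment named. Cells were cultured for 48 h to about 75% confluence with 10% fetal bovine serum. How LM2 was obtained and whether either line is 1 clone are not in the labels, nor is the meaning of Ac6. They also do not tie each replicate to a culture of its own, and every p-value here reflects the spread among these libraries alone, which may be technical.

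TNF receptors are membrane proteins with cysteine-rich repeats outside the cell that bind ligands made as trimers. Some carry a death domain inside the cell, through which adaptors such as FADD and TRADD can be recruited and caspases activated. Others bind TRAF adaptors directly and are best known for activating NF-kB. Osteoprotegerin, encoded by Tnfrsf11b, has no membrane anchor and works as a soluble decoy. In carcinoma cells these receptors are known for passing on both survival and death signals from immune and stromal cells.

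Of the 10 members, 7 passed the filter on low counts and were tested. Cd40, Tnfrsf1b, Tnfrsf12a, Fas and Ngfr were higher in LM2, and Tnfrsf1a and Tnfrsf10b were lower. The calls of Ngfr and Tnfrsf10b were lost under several other settings, and the other 5 kept theirs in all 14. Tnfrsf11b and Tnfrsf19 had no count in any library and Tnfrsf21 had 2 counts in all. The call was an adjusted p below 0.05 in the quasi-likelihood test of edgeR, adjusted by Benjamini-Hochberg over all 13247 tested genes. That rule called 31.4% of all tested genes higher and 31.1% lower in LM2, so a called member is not unusual in these lines. The libraries did not overlap between the lines in 5 members, with LM2 above in 4 and below in 1, where 33.4% of all tested genes lay above and 33.6% below in all LM2 libraries. The median log2 fold change (LM2 minus Parental) of the 7 tested members was 0.62, against 0.00 for all tested genes. Because RNA was taken from whole cultures, fewer cells with a transcript and less of it per cell cannot be told apart.

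Library totals were 33922699 to 38182191 estimated counts in LM2 and 36597892 to 45849019 in Parental. Levels within a gene are given as CPM, counts scaled to a common library total. Across genes, which do not count as replicates, log2 CPM of 2 libraries correlated at 0.991 to 0.994 inside a line and at 0.962 to 0.964 across lines. As a check of the labelled breast cancer cells, the epithelial keratin Krt8 was at 568 ± 10.4 CPM in LM2 and 420 ± 6.61 CPM in Parental (SD, n = 3 each), while its partner Krt18, Krt5 and the cadherin Cdh1 lay below 0.2 CPM in both. The epithelial adhesion gene Epcam was at 15.0 ± 0.360 CPM in LM2 and 0.154 ± 0.0503 CPM in Parental, and the basal keratin Krt14 at 8.47 ± 0.571 CPM in LM2 and 1.11 ± 0.180 CPM in Parental (SD, n = 3 each), both called higher in LM2. All 8 leukocyte markers together summed to 3.27 to 4.04 CPM in LM2 and 0.331 to 0.615 CPM in Parental. Adgre1 was at 0 in every library, Ptprc lay at 0.0745 CPM in LM2 and 0.0651 CPM in Parental, and Cd79a alone was tested, at 3.21 and 0.113 CPM. The 5 neural crest markers summed to 1.97 to 2.79 CPM in LM2 and 1.32 to 1.91 CPM in Parental, with Foxd3 at 0. The 5 endothelial markers summed to 4.12 to 4.60 CPM in LM2 and 3.40 to 4.19 CPM in Parental, mostly from Pecam1, with Emcn at 0 and Cdh5 called higher, at 0.668 CPM in LM2 and 0.180 CPM in Parental. The part of such cells in the results was not tested.

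In TPM, the unit of kallisto that also corrects for transcript length, Tnfrsf12a was the most abundant member in LM2 and Tnfrsf1a in Parental. In LM2 the order was Tnfrsf12a at 147 ± 4.40 TPM, Tnfrsf1a at 94.1 ± 2.23, Tnfrsf1b at 45.0 ± 0.683, Cd40 at 25.3 ± 3.34, Tnfrsf10b at 18.7 ± 0.988, Fas at 2.79 ± 0.151 and Ngfr at 0.462 ± 0.129 TPM (SD, n = 3). In Parental it was Tnfrsf1a at 123 ± 3.42 TPM, Tnfrsf12a at 114 ± 2.70, Tnfrsf1b at 32.1 ± 0.992, Tnfrsf10b at 19.6 ± 1.08, Cd40 at 8.39 ± 1.14, Fas at 1.26 ± 0.372 and Ngfr at 0.267 ± 0.075 TPM (SD, n = 3). Within each line, no 2 neighbours in this order of 7 overlapped across its 3 libraries. Tnfrsf12a and Tnfrsf1a, and likewise Cd40 and Tnfrsf10b, thus stood in opposite order in the lines. Of the Cd40 TPM in LM2, 30.2% came from Cd40-203, of 668 bases, and 22.1% from Cd40-207, of 1062 bases. The place of Cd40 thus rests in part on short transcripts.

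**Figure D1:**
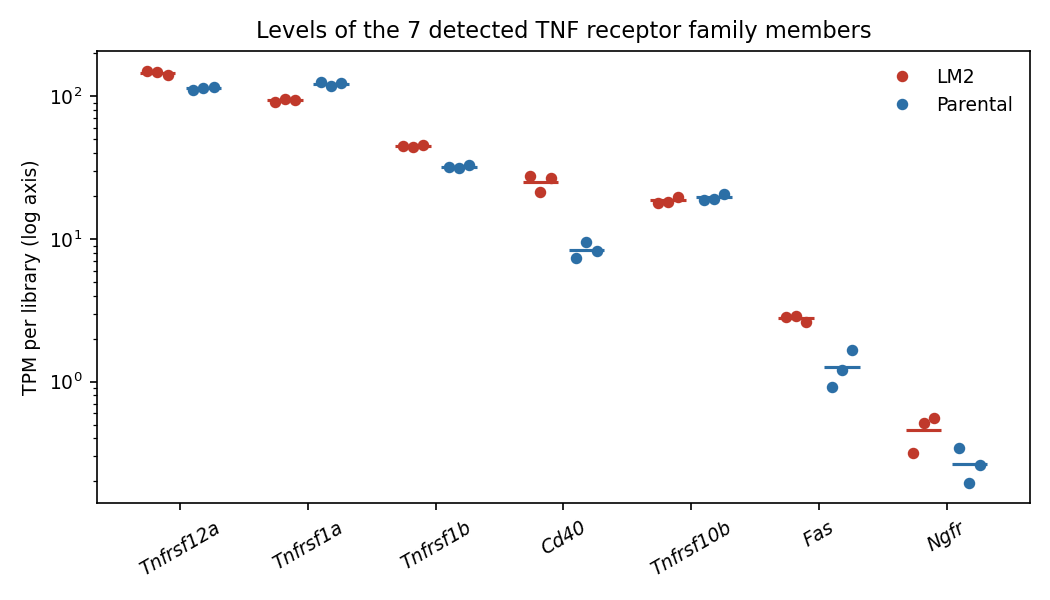
Level of each tested member in TPM on a log axis, with 1 point per library, LM2 in red and Parental in blue, and a bar at the mean of 3 libraries. Tnfrsf12a and Tnfrsf1a change places between the lines, Cd40 lies at 21.5 to 27.8 TPM in LM2 and at 7.32 to 9.58 TPM in Parental, and the points of Tnfrsf10b and Ngfr overlap.

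Among the members with a death domain, Tnfrsf1a, which encodes the main TNF receptor of most cells (TNFR1), fell in LM2. It had 119, 119 and 121 CPM in LM2 replicates 1 to 3, against 163, 158 and 161 CPM in Parental replicates 1 to 3. All LM2 libraries lay below all Parental libraries. Its log2 fold change of -0.42 ± 0.03 (SE) makes it 1.34-fold lower in LM2 (edgeR adjusted p = 4.59e-12). One transcript, Tnfrsf1a-201, held 97.0% of the gene's TPM in LM2 and 97.9% in Parental. None of the gene's 31-base words, the length of sequence that kallisto matches by default, occurred in transcripts of other genes.

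The fall of Tnfrsf1a came with lower values around it on chromosome 6. The median log2 fold change of the 617 tested genes of that chromosome was -0.18. Of the 20 nearest tested genes in gene order, 10 on each side, 14 were lower and 3 higher in LM2, with a median of -0.55. Ltbr, the lymphotoxin beta receptor gene of the same chromosome, fell by 0.25 on the log2 scale. The part of the chromosome in the value of Tnfrsf1a was not tested.

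Fas, which encodes the receptor of Fas ligand and triggers caspase 8, rose in LM2 at a low level. It had 1.62, 1.45 and 1.60 CPM in LM2 replicates 1 to 3, against 0.637, 0.716 and 0.966 CPM in Parental replicates 1 to 3. The lowest LM2 library lay above the highest Parental library. Behind these values were 49 to 61 counts per LM2 library and 26 to 39 counts per Parental library. The log2 fold change was 1.01 ± 0.26 (SE), or 2.01-fold higher in LM2, with a 95% interval of 0.48 to 1.54 (edgeR adjusted p = 0.00158). Fas-201, the longest of its coding transcripts, took 49.0% of the gene's TPM in LM2, and in Parental its share ran from 30.8% to 72.6% between libraries. Of the 31-base words of Fas-201, 14 of 1451 occur in no other Fas transcript. Shares of Fas transcripts are thus not resolved here. The 20 nearest tested genes on chromosome 19 had a median log2 fold change of 0.12.

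Tnfrsf10b, which encodes the mouse receptor of the death ligand TRAIL, was slightly lower in LM2. It had 32.2, 32.6 and 36.3 CPM in LM2 replicates 1 to 3, against 36.3, 35.8 and 39.2 CPM in Parental replicates 1 to 3. LM2 replicate 3 lay among the Parental libraries, so the groups overlapped. In log2 the fold change was -0.14 ± 0.05 (SE), 1.10-fold lower in LM2, with an edgeR adjusted p = 0.0256 and a 95% interval of -0.25 to -0.03. This call was lost without LM2 replicate 1 (adjusted p = 0.0941), LM2 replicate 2 (0.0873) or Parental replicate 3 (0.145), and also with DESeq2 (0.0577) and with counts scaled for transcript length (0.182).

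Ngfr, encoding the neurotrophin receptor p75NTR, was detected in every library at a low level, with few counts. It had 0.695, 1.10 and 1.21 CPM in LM2 replicates 1 to 3, against 0.769, 0.441 and 0.570 CPM in Parental replicates 1 to 3. LM2 replicate 1 lay below Parental replicate 1. The counts were 24, 37 and 46 in the LM2 libraries and 35, 16 and 23 in the Parental libraries. The log2 fold change was 0.74 ± 0.32 (SE), or 1.67-fold higher in LM2, with a 95% interval of 0.08 to 1.40 (edgeR adjusted p = 0.0479). The call was lost in 10 of the 13 other settings that tested the gene, the replicate block among them (adjusted p = 0.076). Among these are the fits without LM2 replicate 2 (0.135) or 3 (0.198), or Parental replicate 2 (0.171) or 3 (0.108). The 5 neural crest markers together ran from 1.97 to 2.79 CPM in LM2 and from 1.32 to 1.91 CPM in Parental, whereas Sox10, a defining one, lay at 0.0175 CPM in LM2 and 0.0165 CPM in Parental. What share neural crest genes have in the value of Ngfr was not tested.

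Tnfrsf21, which encodes death receptor 6, had no count in any LM2 library and 1, 1 and 0 counts in Parental replicates 1 to 3. With 3 counts as the limit that a count of 0 allows, it lay below 0.0786 to 0.0884 CPM in the LM2 libraries. That limit covers counting error only, and no difference was detectable at this depth.

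Among the members that bind TRAF adaptors, Cd40 had the highest fold change of the 7 tested members. Cd40 encodes a costimulatory receptor best known from B cells and dendritic cells and also found on carcinoma cells. It had 17.0, 15.8 and 17.7 CPM in LM2 replicates 1 to 3, against 5.85, 6.14 and 5.58 CPM in Parental replicates 1 to 3. The groups were far apart compared with the spread within each. The log2 fold change was 1.53 ± 0.08 (SE), or 2.88-fold higher in LM2 (edgeR adjusted p = 1.13e-13), and across the 14 other settings it ran from 1.43 to 1.57. Its 20 nearest tested genes on chromosome 2 were mostly lower (11 lower, 5 higher), with a median log2 fold change of -0.12. A called log2 fold change over 1 was seen in 6.51% of all tested genes. In the authors' deposited table the log2 fold change of Cd40 is 1.56. The summed leukocyte markers were also higher, at 3.27 to 4.04 CPM in LM2 and 0.331 to 0.615 CPM in Parental, nearly all from the B cell gene Cd79a, while Ptprc, found on all leukocytes, was near 0 and Adgre1 at 0.

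The Cd40 counts were divided among 7 annotated transcripts. Shown here are exons that differ between the coding transcripts Cd40-202 and Cd40-203, from GENCODE release M21 on GRCm38. Cd40-202 carries an exon of 62 bases that Cd40-203 lacks, at chr2:165066503-165066564 (plus strand). Cd40-203 carries an exon of 87 bases that Cd40-202 lacks, at chr2:165069629-165069715 (plus strand), which encodes the membrane-spanning segment. Cd40-201 and Cd40-207 hold both, so reads inside these exons do not single out Cd40-202 or Cd40-203.
Cd40 exon of 62 bases: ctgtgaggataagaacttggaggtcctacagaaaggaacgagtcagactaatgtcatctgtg
Cd40 exon of 87 bases: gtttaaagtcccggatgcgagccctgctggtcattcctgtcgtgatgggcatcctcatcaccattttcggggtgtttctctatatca

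The transcript without the 87-base exon, Cd40-202, was given 9.17 ± 0.232 TPM in LM2 and 3.05 ± 0.301 TPM in Parental (SD, n = 3 each). It made up 36.7% of the gene's TPM in LM2 and 36.8% in Parental. The shares differed by less than the spread between replicates, while its level was 3.01-fold higher in LM2. Cd40-203 had 7.81 ± 2.68 TPM in LM2 and 2.09 ± 0.0677 TPM in Parental. The full-length Cd40-201 had 1.36 ± 0.429 TPM in LM2 and 0.762 ± 0.192 TPM in Parental. Cd40-207, annotated as a target of nonsense-mediated decay, held 19.9%, 22.3% and 24.1% of the gene's TPM in LM2 replicates 1 to 3, against 13.9%, 17.8% and 6.65% in Parental replicates 1 to 3. These shares did not overlap. Of the 31-base words of Cd40-207, 130 of 1032 occur in no other Cd40 transcript. The values of Cd40-202 and Cd40-203 rest on fewer, 29 of 1566 and 29 of 638. Cd40-201 and Cd40-202 also differ in the length of their last exon.

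**Figure D2:**
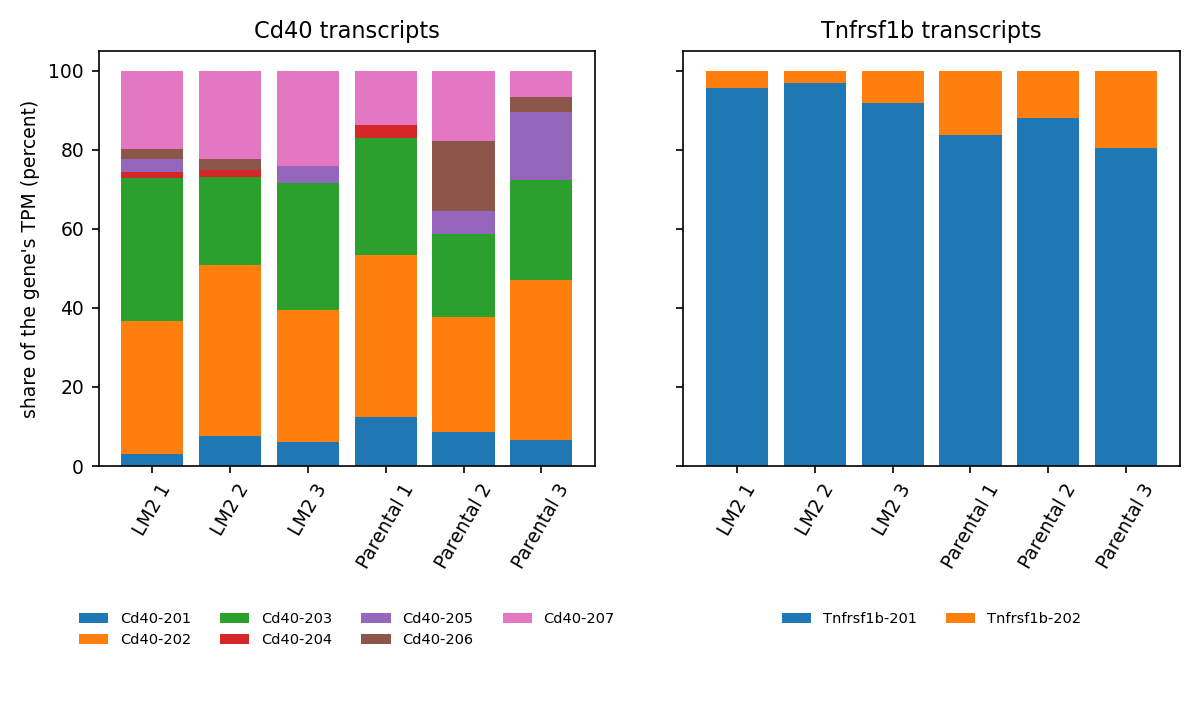
Share of the gene's TPM (percent) held by each annotated transcript of Cd40 (left panel) and Tnfrsf1b (right panel) in each library, LM2 replicates first. Cd40-202 holds 33.4% to 43.1% in LM2 and 28.9% to 41.0% in Parental, and Tnfrsf1b-202 holds 3.25% to 8.09% in LM2 and 11.9% to 19.6% in Parental.

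Tnfrsf1b encodes TNFR2, the second receptor of TNF, which has no death domain and binds TRAF2. It had 105, 104 and 102 CPM in LM2 replicates 1 to 3, against 66.3, 68.7 and 66.8 CPM in Parental replicates 1 to 3. Every LM2 library was above every Parental library. The log2 fold change was 0.62 ± 0.03 (SE), or 1.54-fold higher in LM2 (edgeR adjusted p = 9.37e-14). Tnfrsf1b lies on chromosome 4, where 73.6% of the 829 tested genes were higher and 4.58% lower, with a median log2 fold change of 0.39. Its 20 nearest tested genes had a median of 0.46, with 13 higher and 2 lower. The part of the chromosome in the value of Tnfrsf1b was not tested.

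The size of the Tnfrsf1b rise depended on how transcript length was treated. With counts scaled for transcript length the log2 fold change was 0.45, and in the authors' deposited table it is 0.46. The gene has 2 transcripts, the coding Tnfrsf1b-201 of 3818 bases and Tnfrsf1b-202 of 375 bases, annotated as a target of nonsense-mediated decay. They differ in exon 2, at chr4:145229004-145229106 on the minus strand (GRCm38, GENCODE release M21), shown because this exon separates them. Tnfrsf1b-202 keeps its first 32 bases, in capitals, and lacks the other 71.
Tnfrsf1b exon 2: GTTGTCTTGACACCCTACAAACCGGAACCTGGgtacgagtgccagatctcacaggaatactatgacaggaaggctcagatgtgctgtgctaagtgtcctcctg

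Tnfrsf1b-202 was given 8.33, 5.72 and 16.8 estimated counts in LM2 replicates 1 to 3, against 28.8, 16.5 and 32.4 in Parental replicates 1 to 3. LM2 replicate 3 lay just above Parental replicate 2. These few counts made up 0.275% of the gene's counts in LM2 and 0.940% in Parental, but 5.25% and 15.9% of its TPM, because the transcript is short. Tnfrsf1b-201 alone had 42.6 ± 0.501 TPM in LM2 and 27.0 ± 0.510 TPM in Parental (SD, n = 3 each), a ratio of 1.58. The gene's TPM had a ratio of 1.40.

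The balance between the RNA levels of the TNF receptors shifted towards Tnfrsf1b. The 20 nearest tested genes had a median log2 fold change of 0.46 around Tnfrsf1b and of -0.55 around Tnfrsf1a. The part of the chromosomes in the ratio was not tested. The ratio of Tnfrsf1b to Tnfrsf1a in gene TPM was 0.490, 0.464 and 0.481 in LM2 replicates 1 to 3, against 0.253, 0.263 and 0.269 in Parental replicates 1 to 3. With the main transcript of each gene only, it was 0.467 ± 0.0117 in LM2 and 0.225 ± 0.00752 in Parental (SD, n = 3 each). The groups did not overlap, but this was fixed beforehand, because each gene's libraries were already apart, in opposite directions. An exact two-sided permutation test gave p = 0.1, the smallest that 3 against 3 libraries allow. It could not have come out otherwise and adds nothing to the values of the genes.

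Tnfrsf12a encodes Fn14, the receptor of TWEAK, a small receptor that is induced by growth factors and injury. It had 76.9, 74.3 and 71.5 CPM in LM2 replicates 1 to 3, against 57.2, 59.8 and 60.2 CPM in Parental replicates 1 to 3. The groups did not overlap. It was 1.26-fold higher in LM2, with a log2 fold change of 0.33 ± 0.04 (SE; edgeR adjusted p = 3.82e-08). Tnfrsf12a-201 held 92.0% of the gene's TPM in LM2 and 92.7% in Parental. The 20 nearest tested genes on chromosome 17 had a median log2 fold change of 0.05. Tnfrsf12a exceeded Tnfrsf1a in LM2, with a ratio of gene TPM of 1.56 ± 0.0728, and was below it in Parental, with 0.932 ± 0.0439 (SD, n = 3 each).

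Tnfrsf19, which encodes the orphan receptor TROY, and Tnfrsf11b, which encodes the soluble decoy osteoprotegerin, had 0 counts in all 6 libraries. A count of 0 allows levels of up to 0.0786 to 0.0884 CPM in the LM2 libraries and 0.0654 to 0.082 CPM in the Parental libraries, for counting error only.

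**Figure D3:**
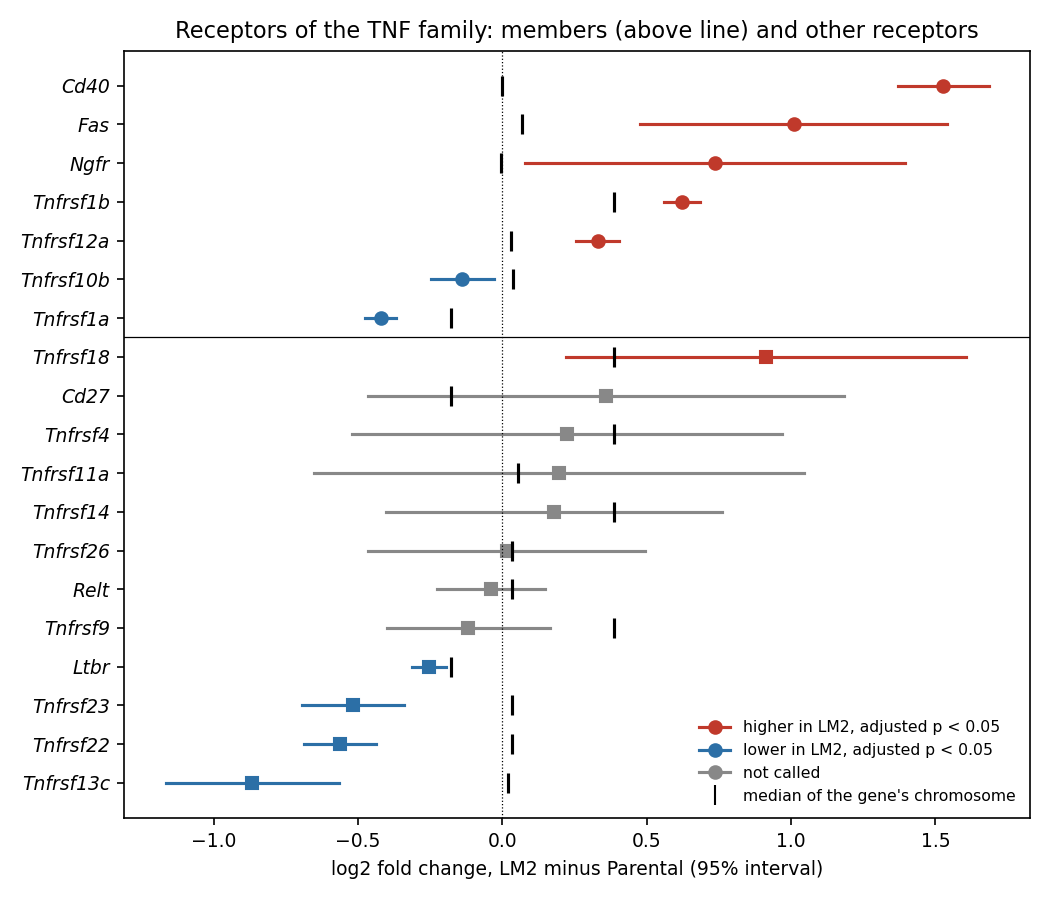
Log2 fold change (LM2 minus Parental) of the 19 tested receptors of the family with 95% intervals, the members above the line (circles) and the other receptors below it (squares), in red for higher, blue for lower and grey for not called, with a black mark at the median of each gene's chromosome. Cd40 is at 1.53 with its chromosome at 0.00, whereas Tnfrsf1b at 0.62 and Tnfrsf1a at -0.42 lie on the same side as their chromosomes, at 0.39 and -0.18.

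Promoter sequence was available for 7 of the 10 members in RefSeq's GRCm38.p6 annotation, as 250 bases before and 50 after a gene's start. These windows were searched on both strands for the interferon motifs GAS (TTCNNNGAA) and ISRE (GAAA, any 2 bases and GAAA), the AP-1 motif (TGANTCA), the GC box (GGGCGG) and the kappaB consensus. GAS occurred in 8.30% and ISRE in 3.44% of all 32851 windows, AP-1 in 7.81%, the GC box in 35.7% and the kappaB consensus in 8.46%. None of the windows of these 7 members held the kappaB consensus. Cd40, Tnfrsf10b and Tnfrsf11b had no window and were not searched. Printed are the windows of Tnfrsf1b, Fas and Tnfrsf1a, called members whose windows hold GAS or ISRE, with these motifs in capitals. They do not overlap another motif searched. The windows lie at chr4:145246821-145247120 (minus strand), chr19:34290409-34290708 (plus strand) and chr6:125349473-125349772 (plus strand).
Tnfrsf1b promoter: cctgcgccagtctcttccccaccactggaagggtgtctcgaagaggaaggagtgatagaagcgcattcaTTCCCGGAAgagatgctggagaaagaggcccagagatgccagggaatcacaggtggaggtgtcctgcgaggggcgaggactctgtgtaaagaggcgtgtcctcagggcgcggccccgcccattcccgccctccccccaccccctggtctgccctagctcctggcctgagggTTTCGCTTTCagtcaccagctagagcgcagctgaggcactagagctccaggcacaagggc
Fas promoter: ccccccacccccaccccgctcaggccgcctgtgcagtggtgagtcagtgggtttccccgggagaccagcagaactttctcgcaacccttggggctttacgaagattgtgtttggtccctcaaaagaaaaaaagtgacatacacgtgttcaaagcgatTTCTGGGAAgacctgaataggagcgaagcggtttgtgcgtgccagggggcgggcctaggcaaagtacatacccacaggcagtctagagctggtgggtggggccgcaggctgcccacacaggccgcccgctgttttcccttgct
Tnfrsf1a promoter: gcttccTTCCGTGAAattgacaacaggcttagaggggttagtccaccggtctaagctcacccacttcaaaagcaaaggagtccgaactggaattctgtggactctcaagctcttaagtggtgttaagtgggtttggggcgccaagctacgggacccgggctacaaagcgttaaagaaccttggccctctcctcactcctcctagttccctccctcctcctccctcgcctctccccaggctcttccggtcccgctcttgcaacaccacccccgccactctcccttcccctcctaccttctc

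The Tnfrsf1b window had 1 GAS and, in the last 10 bases before the start, 1 ISRE. The windows of Fas and Tnfrsf1a had 1 GAS each, and that of Fas also had 1 AP-1 motif. The windows of Tnfrsf1b and Fas had 2 GC boxes each and that of Tnfrsf1a had 0. Tnfrsf12a had 5 GC boxes and none of the other 4 motifs. GAS was found in genes that rose, in a gene that fell and in a window of Tnfrsf19, which had 0 counts in every library. These matches describe letters and not binding.

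Of 18 other receptors, 12 were tested, of which 1 was higher and 4 were lower in LM2, with a median log2 fold change of -0.01. Over all tested genes 31.4% were higher and 31.1% lower. The B cell receptor gene Tnfrsf13c, which encodes the BAFF receptor, fell to 2.46 ± 0.234 CPM in LM2, against 4.48 ± 0.477 CPM in Parental (SD, n = 3 each). Tnfrsf22 and Tnfrsf23, mouse decoy receptors of TRAIL, fell by 0.56 and 0.52 on the log2 scale (edgeR adjusted p = 3.65e-08 and 1.52e-05). They share 38.5% and 28.5% of their 31-base words with other genes, so their levels are less certain, and the call of Tnfrsf23 was lost with protein-coding transcripts only (adjusted p = 0.0597). Ltbr fell to 103 ± 2.01 CPM in LM2, against 123 ± 1.45 CPM in Parental. Tnfrsf18, which encodes GITR and lies on chromosome 4, was the single riser, at 0.773 ± 0.183 CPM in LM2 and 0.411 ± 0.0363 CPM in Parental. It was named because it is the only one, after its values were seen. No receptor of this list was called higher in 7 of 14 other settings, which were DESeq2, at least 1 CPM, length scaling, protein-coding transcripts only and the fits without LM2 replicate 3, Parental replicate 1 or Parental replicate 2. Relt, at 9.95 CPM in LM2 and 10.2 CPM in Parental, did not pass.

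Ligands of the family were scarce in both lines. Of 18 ligand genes, 4 were tested and 8 had no count in any library, Fasl and Cd40lg among them, so the ligands of Fas and Cd40 were not detected. Tnfsf10, which encodes TRAIL, rose to 2.43, 2.11 and 2.07 CPM in LM2 replicates 1 to 3, against 0.637, 0.661 and 0.694 CPM in Parental replicates 1 to 3 (log2 fold change 1.72 ± 0.24, edgeR adjusted p = 1.30e-06). Its LM2 libraries were all above its Parental libraries. Tnfsf12, which encodes TWEAK, the ligand of Fn14, rose 1.53-fold to 6.94 ± 0.597 CPM in LM2, against 4.52 ± 0.695 CPM in Parental (edgeR adjusted p = 0.000118). Tnfsf13, encoding APRIL, rose 1.47-fold. Tnfsf12 and Tnfsf13 share 47.4% and 58.4% of their 31-base words with other genes, so their levels are less certain. Tnf itself had 1.68, 1.72 and 1.70 CPM in LM2 replicates 1 to 3, against 1.19, 1.38 and 1.04 CPM in Parental replicates 1 to 3, and did not pass (log2 fold change 0.50, edgeR adjusted p = 0.0578). It passed in 4 of 14 other settings.

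Of 28 genes of TRAF adaptors and signalling next to the receptors, 27 were tested, with a median log2 fold change of 0.04. In LM2 11 of them were higher (40.7%) and 9 lower (33.3%), against 31.4% and 31.1% of all tested genes. The largest rises among them were in Birc3, Traf1 and Tnfaip3, each known as a gene that NF-kB induces. Birc3, a ubiquitin ligase of the TNF receptor complex, had 7.38, 8.01 and 8.12 CPM in LM2 replicates 1 to 3, against 2.79, 2.34 and 1.88 CPM in Parental replicates 1 to 3, and rose 3.34-fold. Traf1 rose 2.19-fold and Tnfaip3, which encodes the feedback inhibitor A20, 1.98-fold. Map3k7, the kinase TAK1, rose 1.57-fold and lies on chromosome 4. Among the falls, Birc2 was 1.26-fold, Traf6 1.17-fold, the kinase gene Ikbkb 1.17-fold and Tab2 1.15-fold lower. Tab2 lies on chromosome 10, whose 662 tested genes had a median log2 fold change of -0.33, and so does Tnfaip3. Ikbkb lies on chromosome 8, with a median of -0.31, Birc2 on chromosome 9, with 0.03, and Traf6 on chromosome 2, with -0.001. Birc2 lost its call with counts scaled for transcript length. Traf7, at 189 CPM in LM2 and 186 CPM in Parental, did not pass.

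Downstream of the death domain, 14 of 15 genes were tested, and the median log2 fold change was -0.05. Of the tested genes 3 were higher (21.4%) and 5 lower (35.7%), against 31.4% and 31.1% of all tested genes. Bid, which links caspase 8 to mitochondria, rose 1.48-fold. Faf1, a Fas-associated factor, rose 1.38-fold and Casp9 1.23-fold, both on chromosome 4. The necroptosis effector Mlkl fell 1.34-fold, the adaptor Fadd 1.24-fold and Apaf1 1.18-fold. Mlkl lies on chromosome 8, whose 702 tested genes had a median log2 fold change of -0.31. Apaf1 lies on chromosome 10, with a median of -0.33, Fadd on chromosome 7, with 0.03, and Bid on chromosome 6, with -0.18. Diablo, at 56.7 CPM in LM2 and 59.5 CPM in Parental, did not pass, although it did in 3 of 14 other settings, and 39.6% of its words are shared with other genes.

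Genes of receptor shedding moved by small amounts, with 2 of 5 tested higher (40%) and 1 lower (20%). Over all tested genes 31.4% were higher and 31.1% lower in LM2. The sheddases Adam10 and Adam17, which cleave TNF receptors from the membrane, rose 1.17-fold and 1.09-fold. Rhbdf1, which helps traffic Adam17, fell 1.09-fold. That fall was lost with counts scaled for transcript length (adjusted p = 0.788) and without Parental replicate 3 (0.0531). Frmd8, at 98.0 CPM in LM2 and 99.1 CPM in Parental, did not pass.

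Of 14 neurotrophins and partners of Ngfr, 9 were tested, 3 were higher (33.3%) and none was lower. Over all tested genes the shares were 31.4% higher and 31.1% lower. The p75NTR-binding proteins Bex3 and Maged1 rose 1.18-fold and 1.10-fold. Its coreceptor Lingo1 rose 1.17-fold, a call that was lost with counts scaled for transcript length.

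**Figure D4:**
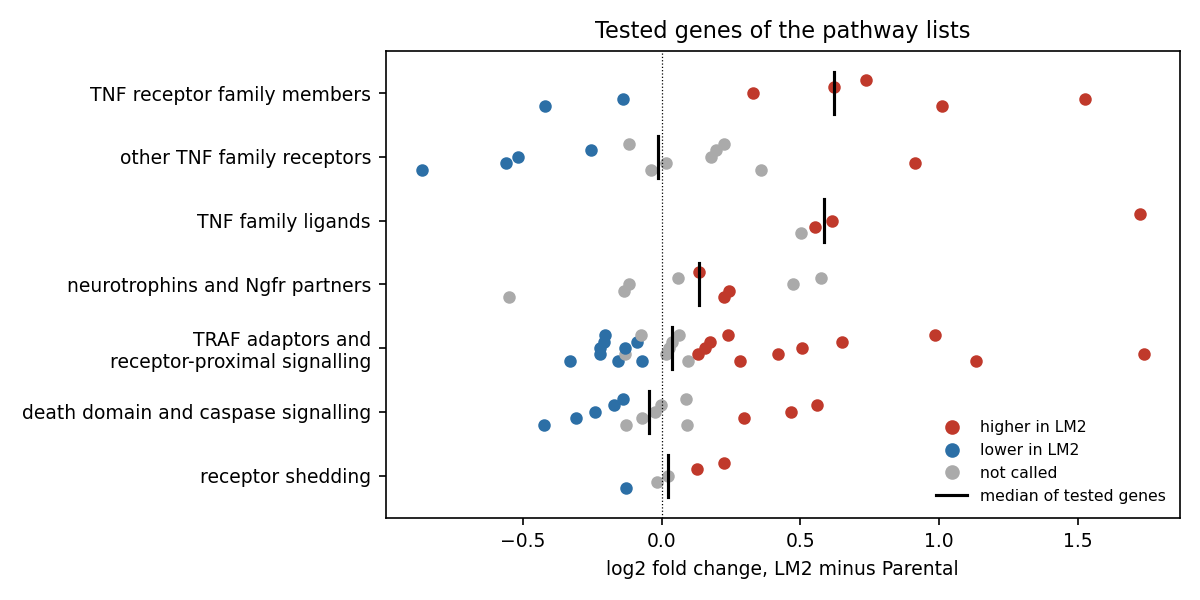
Log2 fold change (LM2 minus Parental) of every tested gene of the family and of the pathway lists, 1 point per gene, in red for higher, blue for lower and grey for not called, with a black bar at each list's median. The medians are 0.62 for the members, -0.01 for the other receptors and 0.58 for the 4 tested ligands, while those of the signalling, death and shedding lists lie at 0.04, -0.05 and 0.02.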

How the data were processed

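RNA of 3 LM2 and 3 Parental libraries was sequenced after an mRNA library kit, per the labels. For each library the authors deposited estimated counts and TPM of 117486 transcripts, made with kallisto 0.46.2, with GRCm39 listed, per the submitters' processing notes. The deposited TPM values are scaled for effective length and depth per the file headers of kallisto, and transcript lengths in bases are another deposited column. The authors' deposited table of log2 fold changes per gene symbol lists neither base nor direction. These were read from its closeness to the values here (slope 0.931 over 10557 genes for LM2 minus Parental with counts scaled for transcript length). edgeR 3.32.1 is named in those notes, and neither the transcript set nor the strand setting is given in the sources used here. Thus reads of overlapping and antisense genes cannot be told apart.

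Transcripts were matched by Ensembl identifier to GENCODE release M21 (GRCm38). As builds differ, coordinates printed are those of GRCm38 only. Of all transcripts 116408 (99.1%) matched 35905 genes, and the others held 0.426% to 0.448% of counts and were left out. Counts were summed per gene and rounded. Genes were filtered with filterByExpr, scaled by TMM and tested by robust quasi-likelihood in edgeR 4.0.16 (R 4.3.3), LM2 minus Parental, with no covariate. CPM are after TMM scaling. Standard errors were derived from the F statistics. Alternatives used DESeq2 1.42.0 and limma 3.58.1 among others. The tests were also run on simulated data in which only a small part of the genes was changed. Here 62.4% of tested genes were called, so that simulation does not check scaling or error rates for these data.

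Members and lists were chosen with earlier results of these data known. Beside all members, the rule for named genes took from each list up to 4 called genes per direction that reached 1 CPM in the higher line, and the most abundant tested gene that was not called. Some genes so chosen are not reported here.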

Additional observations from a re-analysis of the deposited data

How the results depend on the processing

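The 14 alternatives were RLE scaling, DESeq2, limma voom, no low-count filter, at least 1 CPM in 3 libraries, counts scaled for transcript length, protein-coding transcripts only, the replicate block and leaving out each library. Cd40, Fas, Tnfrsf1a, Tnfrsf1b and Tnfrsf12a kept direction and call in all of them. Ngfr, whose call rested on a log2 fold change of 0.74, was at 0.75 with DESeq2, 0.72 with limma voom, 0.72 with no low-count filter, 0.73 with counts scaled for transcript length, 0.74 with protein-coding transcripts only and 0.73 with the replicate block, each time without a call, and 0.57 to 0.97 with 1 library left out. It was not tested at 1 CPM in 3 libraries. Tnfrsf10b was at -0.13 with DESeq2 and -0.11 with counts scaled for transcript length, without a call, and at -0.20 to -0.10 with 1 library left out. Members called lower were then 1 with DESeq2 and 1 with length scaling, and 1 to 2 with a library left out. Other receptors called higher were 0 with DESeq2, at 1 CPM, with length scaling and with protein-coding transcripts, and 0 to 1 with a library left out. Called lower among TRAF adaptors and their signalling were 5 with length scaling and 5 to 9 with a library left out. Called higher in the death domain list were 5 at 1 CPM and 3 to 5 with a library left out. Called lower among shedding genes were 0 with length scaling and 0 to 1 with a library left out. Over all genes, 3519 to 4200 were called higher and 3466 to 4519 lower across the settings that kept every library. Medians of whole chromosomes, a check chosen after seeing the data, ran from 0.35 to 0.39 for chromosome 4 and from -0.19 to -0.16 for chromosome 6. The cause of these changes was not tested.

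As a share of estimated counts in place of TPM, Cd40-202 held 50.7% in LM2 and 49.5% in Parental, Fas-201 74.8% in LM2, Tnfrsf1b-201 99.7% and 99.1%, Tnfrsf10b-201 93.1% and 94.4%, Tnfrsf12a-201 94.1% and 94.6%, and Tnfrsf1a-201 99.3% and 99.5% (LM2 and then Parental).

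Replicate numbers do not pair the libraries by their labels. Deviations from the line means of libraries with the same number correlated at -0.078, 0.045 and 0.015 across genes, and with the replicate block 4149 genes were called higher and 4101 lower, and the call of Ngfr alone was lost among the members. Depth limits Fas and Ngfr, with 16 to 61 counts per library, and the 3 members at or near 0.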
